A study of Rattus norvegicus with 4 samples.

Results

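The activins, inhibin, follistatins and the receptors they share were followed in the day 5 uterus of pregnant Sprague Dawley rats, before implantation. All 10 genes listed for this family were measured, among 18166 genes in all: the subunit genes Inhba, Inhbb and Inha, the related ligands Nodal and Lefty2, the activin-binding proteins Fst and Fstl3, and the receptors Acvr1, Acvr2a and Acvr2b. Each had 1 probe set with that gene as its single symbol in the platform's annotation. Adult rats 10 to 12 weeks old received either ormeloxifene in gum acacia by mouth on day 1, at a dose of 1.25 mg per kg, or only the vehicle. Ormeloxifene binds oestrogen receptors as a selective modulator without a steroid structure, and it is taken as a contraceptive pill. Total RNA of each group was read on 2 Affymetrix whole-transcript arrays, labelled as biological replicates 1 and 2. The labels do not say how many rats contributed to an array. The comparison asks how ormeloxifene changed these transcripts in the uterus shortly before implantation.

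Activins are dimers of beta subunits, and inhibins pair a beta subunit with the alpha subunit. Activin binds a type II receptor, which recruits and phosphorylates a type I receptor, and the signal passes to the nucleus through Smad2 and Smad3 with Smad4. Inhibin competes for the type II receptors, follistatin and follistatin-like 3 trap activin outside the cell, and Nodal uses the same type II receptors while Lefty proteins block it. In the pregnant uterus of rodents, activin signalling and follistatin are known for their part in preparing the stroma for implantation and decidualisation.

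RefSeq promoter sequences (GRCr8) were matched for 7 of the 10 genes: Inhba, Inhbb, Inha, Nodal, Fstl3, Acvr2a and Acvr2b. The 250 bases before the annotated start are shown for the alpha subunit gene and for the beta A subunit gene, because the products of these genes pair in inhibin A and their windows share none of the motifs searched. The capitals mark matches, on either strand, to GGTCA (1 arm of the oestrogen receptor palindrome), CAGAC (the Smad-binding letters), TGCGTCA (a variant of the cyclic AMP response element) and TATAAA; no marked matches overlap. Sequences run 5′ to 3′ on the gene's own strand.
Inha, GRCr8 chr9:84442859-84443108, plus strand: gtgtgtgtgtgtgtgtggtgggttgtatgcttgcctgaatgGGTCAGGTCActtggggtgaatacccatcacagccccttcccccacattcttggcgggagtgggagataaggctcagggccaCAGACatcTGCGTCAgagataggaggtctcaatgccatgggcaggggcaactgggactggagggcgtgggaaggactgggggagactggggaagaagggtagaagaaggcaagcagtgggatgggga
Inhba, GRCr8 chr17:53804509-53804758, minus strand: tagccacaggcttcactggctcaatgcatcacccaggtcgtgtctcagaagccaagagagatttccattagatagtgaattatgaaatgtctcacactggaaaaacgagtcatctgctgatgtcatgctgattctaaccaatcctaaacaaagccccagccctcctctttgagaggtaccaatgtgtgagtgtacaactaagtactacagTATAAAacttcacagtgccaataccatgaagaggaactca

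The Inha window held GGTCA 2 times in direct succession, at 209 and 204 bases before the start, CAGAC at 127 bases and TGCGTCA at 119 bases. The last of these is the element through which cyclic AMP is known to drive Inha in ovarian granulosa cells. The Inhba window held 1 match, TATAAA at 40 bases before the start. Other forms of the cyclic AMP response element were not searched in either window. Over all 33469 promoter windows of this length, GGTCA was present in 35.4%, CAGAC in 42.9%, TATAAA in 12.9% and TGCGTCA in 1.66%. Of the 7 matched genes, 2 had GGTCA (Inha and Fstl3) and 3 had CAGAC (Inha, Fstl3 and Nodal). The full palindrome, GGTCA and its reverse complement 3 bases apart, was found in 0.0239% of windows and in 0 of the 7. Composition differed widely between the subunit genes: 43.6% of bases were G or C in the Inhba window, 58.4% in that of Inha and 86.8% in that of Inhbb, against a median of 51.2% over all windows. These matches describe letters only, and binding was not measured.

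The deposited values are log2 signals, and those below were quantile normalized across the 4 arrays. Differences are ormeloxifene minus vehicle on that log2 scale with their standard error, from limma fitted over all genes, and group values are mean ± SD over 2 arrays. By limma, 0 of the 10 genes passed a Benjamini-Hochberg adjusted p of 0.05 (adjusted p = 1.00 for each), where 0% of all genes tested did. At an unadjusted p under 0.05 there were also 0 of the 10, against 2.20% of all genes (1.12% higher, 1.08% lower). Mean signal was higher with ormeloxifene in 5 of the 10 and lower in 5, with a median difference of 0.01 (-0.19 without vehicle replicate 1, 0.067 without ormeloxifene replicate 1), as against 0.02 over all genes. Of all 18166 genes 9702 were higher and 8464 lower, which is the background for the counts of direction given below. The arrays of the groups did not overlap in 2 of the 10, Fst on the higher side and Acvr1 on the lower, where this held for 25.7% of all genes (13.9% higher, 11.8% lower). With 2 arrays against 2, exact permutation testing of any one gene could reach p = 0.333 at best. The small number of arrays also limits precision.

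Arrays that carry the same replicate number shared exactly equal deposited values at 488 and 551 probe sets, and the other 4 pairs of arrays at 0. The labels do not say what the number stands for, so differences within number 1 and within number 2 are given beside the pooled ones for the 10 genes and for the other genes of smallest p. No equal values fell on the 10 genes. As a check of the tissue, 9 of 9 stromal, 6 of 6 smooth muscle and 8 of 9 epithelial markers measured lay above the median signal of all genes. The mean log2 signal of the smooth muscle markers was 10.1 and 9.85 on the vehicle arrays 1 and 2, and 10.3 and 10.2 on the ormeloxifene arrays. All 6 were higher with ormeloxifene, at a median difference of 0.28, and of 0.22 and 0.24 within numbers 1 and 2. The mean of the epithelial markers was 7.52 and 7.73 with vehicle and 7.52 and 7.58 with ormeloxifene. That of the stromal markers was 10.0 and 10.1 with vehicle and 10.1 and 10.1 with ormeloxifene. Of the epithelial markers 4 were higher and 5 lower (median -0.02), and of the stromal markers 5 and 4 (median 0.07). The part of these levels in any difference below was not tested. In whole uterus, fewer cells of a type and less RNA per cell cannot be told apart.

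**Figure D1:**
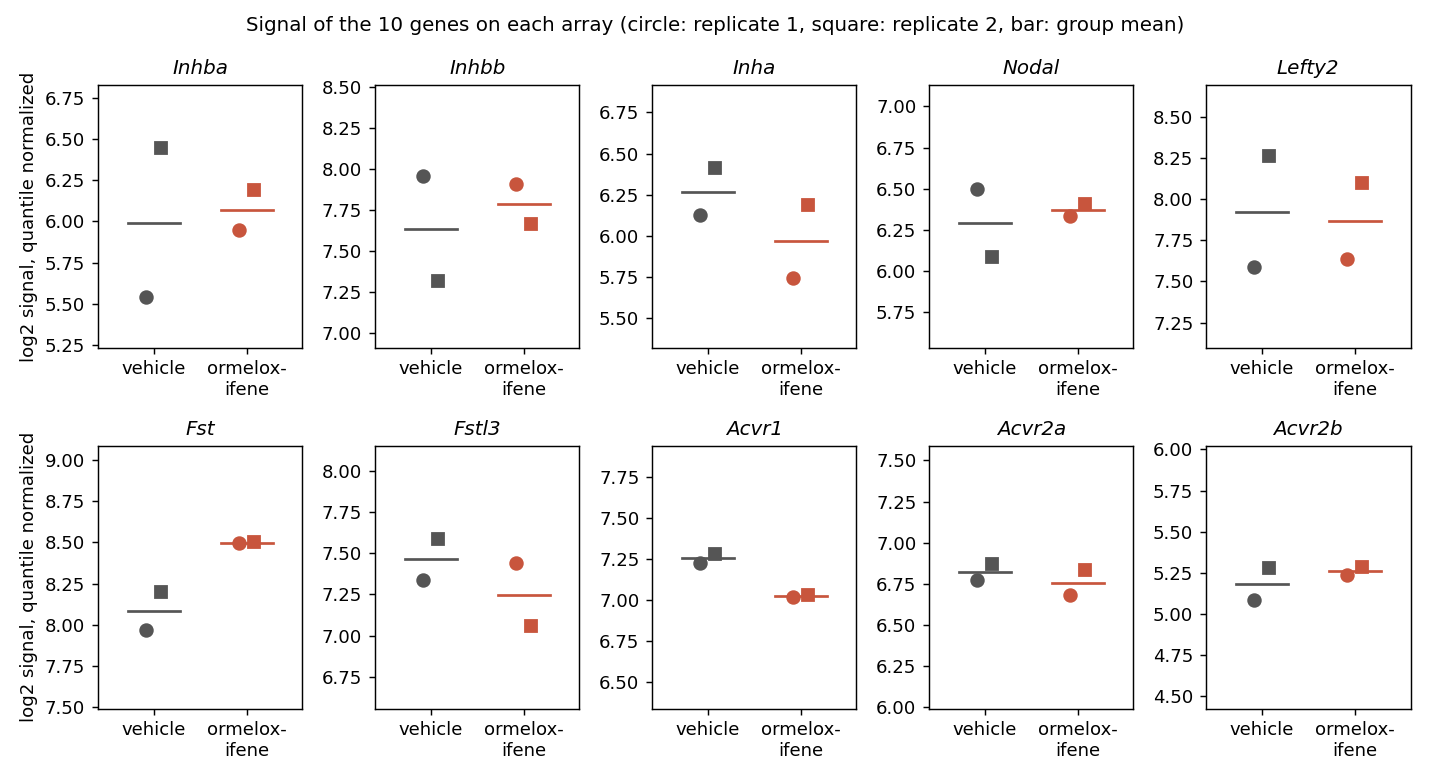
Log2 signal after quantile normalization (vertical axis, the same span in each panel) of the 10 genes on the 2 vehicle and 2 ormeloxifene arrays; circles are replicate 1, squares replicate 2 and bars group means. The arrays of the groups separate for Fst and Acvr1 and overlap for the other 8 genes, and the vehicle arrays lie farthest apart for Inhba.

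Follistatin had the largest difference of the family. The Fst signal (probe set 17745332) was 7.96 and 8.20 on the vehicle arrays 1 and 2, and 8.49 and 8.50 on the ormeloxifene arrays. Both ormeloxifene arrays lay above both vehicle arrays. The group values were 8.08 ± 0.16 with vehicle and 8.50 ± 0.0044 with ormeloxifene, which is 0.42 ± 0.21 higher, or 1.34-fold. Its 95% interval ran from -0.07 to 0.91, with an unadjusted p of 0.0841 and an adjusted p of 1.00 by limma. Within numbers 1 and 2 the difference was 0.53 and 0.30. With the replicate number as a block in the limma fit, 1 of the 10 genes, Fst, had an unadjusted p under 0.05 (0.0382, adjusted p = 0.701), where 6.76% of all genes did. With that block on values left unnormalized, 0 of the 10 did. In size it stood at percentile 93.4 of the absolute differences of all genes, and its brightness at percentile 90.4. With 1 array left out in turn the difference ran from 0.30 without vehicle replicate 1 to 0.53 without vehicle replicate 2. Fst stayed the largest without ormeloxifene replicate 1 or vehicle replicate 2. Without vehicle replicate 1, Inhbb (0.47), Inha (-0.44), Lefty2 (-0.40), Inhba (-0.38) and Fstl3 (-0.34) were larger in size. Without ormeloxifene replicate 2, Inha was -0.52 and Fst 0.41.

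Follistatin-like 3, the second activin-trapping protein, had a mean difference of the opposite sign. Its signal (probe set 17834011) was 7.34 and 7.59 with vehicle and 7.44 and 7.06 with ormeloxifene. Array 1 of the ormeloxifene group lay between the vehicle arrays, and array 2 lay below both. The difference of group means was -0.22 ± 0.23 (95% interval -0.76 to 0.33, unadjusted p = 0.382 by limma). It was 0.10 within number 1 and -0.53 within number 2, and -0.02 without ormeloxifene replicate 2. The difference between the responses of Fst and Fstl3 was not tested.

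Among the subunits, Inhba, which encodes the beta A chain of activin A, showed the widest spread between the vehicle replicates. Its signal (probe set 17719769) was 5.54 and 6.44 on the vehicle arrays and 5.95 and 6.19 on the ormeloxifene arrays, so that both ormeloxifene arrays lay between those of the vehicle group. The vehicle arrays differed from each other by 0.90, whereas the group means differed by 0.08 ± 0.31 (95% interval -0.65 to 0.81). The sign turned with the number, 0.41 within number 1 and -0.25 within number 2. It also turned with the arrays used, from -0.38 without vehicle replicate 1 and -0.05 without ormeloxifene replicate 2 to 0.53 without vehicle replicate 2.

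Inhbb, the gene of the beta B chain of activin B, differed between arrays in the opposite sense to Inhba. The signal (probe set 17683610) was 7.95 and 7.31 with vehicle and 7.91 and 7.66 with ormeloxifene. Both ormeloxifene arrays again lay within the range of the vehicle arrays. The difference was 0.15 ± 0.27 (-0.47 to 0.78), -0.04 within number 1 and 0.35 within number 2. Without vehicle replicate 2 it was -0.17.

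Inha, which encodes the alpha subunit that turns a beta chain into inhibin, had the largest difference on the lower side with all 4 arrays. The signal (probe set 17860703) was 6.13 and 6.41 with vehicle and 5.75 and 6.19 with ormeloxifene. Ormeloxifene array 1 was the lowest of the 4, and ormeloxifene array 2 lay between the vehicle arrays. The difference of -0.30 ± 0.24 (-0.87 to 0.26, unadjusted p = 0.250 by limma) was -0.38 within number 1 and -0.22 within number 2. It shrank to -0.08 without ormeloxifene replicate 1 and reached -0.52 without ormeloxifene replicate 2. The gene was of middling brightness, at percentile 46.1 of signal. Because Inha is a granulosa cell product, ovarian markers were read beside it: 7 were measured and 1, Foxl2, lay above the median signal, at percentile 51.5. The others stood at percentile 41.2 (Lhcgr), 33.3 (Star), 26.9 (Amh), 19.9 (Cyp11a1), 15.6 (the follitropin receptor Fshr) and 5.73 (aromatase, Cyp19a1). The mean of the ovarian list was 5.13 and 5.25 with vehicle and 5.32 and 5.36 with ormeloxifene. All 7 were higher with ormeloxifene in group means, at a median difference of 0.14, and of 0.27 and 0.055 within numbers 1 and 2. Within single numbers this did not hold for Lhcgr (-0.002 within number 1), Fshr (-0.001 within number 2) and Foxl2 (-0.11 within number 2). The part of these markers in the Inha values was not tested.

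Nodal, a ligand that shares the activin type II receptors, and Lefty2, a secreted protein that blocks Nodal, had overlapping groups. Nodal (probe set 17755059) was 6.50 and 6.08 with vehicle and 6.33 and 6.41 with ormeloxifene, a difference of 0.08 ± 0.23 (-0.45 to 0.61). It was -0.17 within number 1 and 0.32 within number 2, and -0.13 without vehicle replicate 2. Lefty2 (probe set 17682637) was 7.59 and 8.26 with vehicle and 7.64 and 8.10 with ormeloxifene, a difference of -0.06 ± 0.29 (-0.74 to 0.62). For Lefty2 the array numbered 2 was the brighter in each group, by 0.67 with vehicle and 0.46 with ormeloxifene. Within numbers 1 and 2 the groups differed by 0.05 and -0.16. The sign turned to 0.28 when vehicle replicate 2 was left out, and to 0.17 when ormeloxifene replicate 1 was.

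Of the receptors, Acvr1 had the tightest replicates. Acvr1 is a type I receptor that binds activin and chiefly carries signals of bone morphogenetic proteins. The signal (probe set 17772428) was 7.23 and 7.28 with vehicle and 7.02 and 7.03 with ormeloxifene. Both ormeloxifene arrays lay below both vehicle arrays. The difference was -0.23 ± 0.20 or 1.17-fold lower, with a 95% interval from -0.70 to 0.24 and an unadjusted p of 0.288 by limma. The replicate SD was 0.04 with vehicle and 0.01 with ormeloxifene. The standard error is larger than these because limma moderates the variance of a gene towards that of all genes. Within numbers 1 and 2 the difference was -0.21 and -0.25, and with 1 array left out it ran from -0.26 to -0.20.

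The type II receptors Acvr2a and Acvr2b, which bind activin first, differed by less than Acvr1 in mean. Acvr2a (probe set 17762029) was 6.77 and 6.87 with vehicle and 6.68 and 6.83 with ormeloxifene, a difference of -0.07 ± 0.21 (-0.55 to 0.41). Acvr2b (probe set 17848790), at percentile 24.0 of signal the dimmest of the family, was 5.09 and 5.28 with vehicle and 5.24 and 5.29 with ormeloxifene, a difference of 0.08 ± 0.21 (-0.41 to 0.56). The groups overlapped for both genes. Within numbers 1 and 2 the difference was -0.09 and -0.04 for Acvr2a, and 0.15 and 0.01 for Acvr2b. Acvr2a was 0.01 without ormeloxifene replicate 1, and Acvr2b was -0.02 without vehicle replicate 1.

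**Figure D2:**
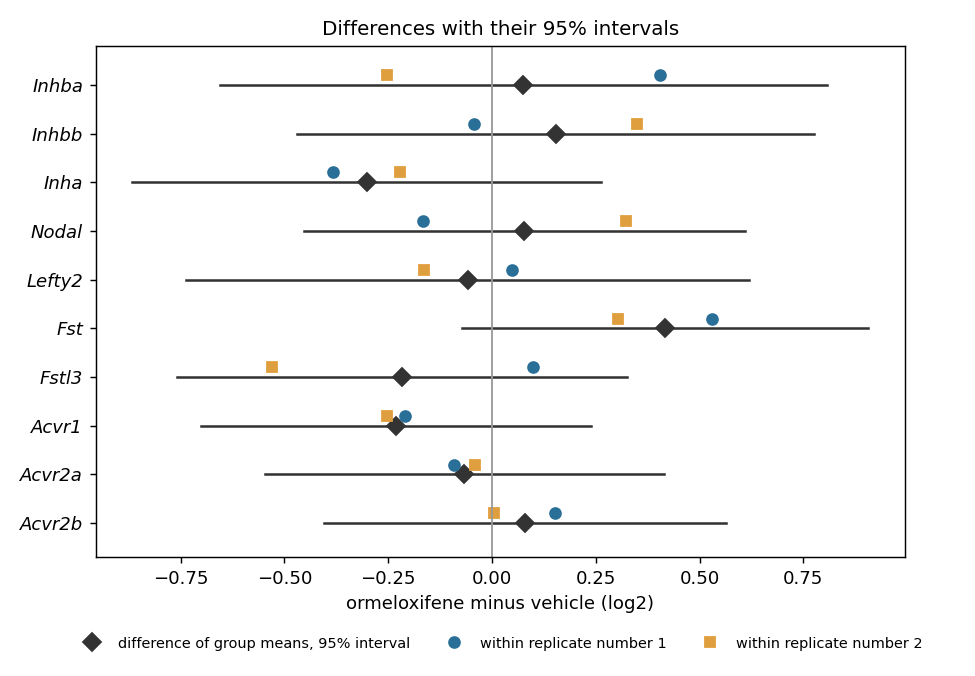
Ormeloxifene minus vehicle on the log2 scale for each of the 10 genes: diamonds are differences of group means with their 95% intervals from limma, circles and squares the differences within replicate numbers 1 and 2. All 10 intervals include 0; the values within the numbers have opposite signs for Inhba, Inhbb, Nodal, Lefty2 and Fstl3.

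For several of these genes the arrays of a group differed more from each other than the group means did. A mean of 2 arrays varies less than 1 array, so the 2 kinds of difference below are not of like scale. The median absolute difference between groups was 0.12 for the 10 genes and 0.13 over all genes. Between the 2 arrays of a group it was 0.26 with vehicle and 0.20 with ormeloxifene for the 10 genes, and 0.27 and 0.23 over all genes. In 8 of the 10 the array numbered 2 differed from the array numbered 1 in the same direction in both groups, as in 66.2% of all genes. Inhba, Lefty2, Inha, Fst, Acvr1, Acvr2a and Acvr2b were brighter on both arrays numbered 2, and Inhbb was dimmer. Nodal and Fstl3 went opposite ways in the groups. With vehicle, Inhba and Inhbb differed between arrays by 0.90 and -0.64, and with ormeloxifene by 0.24 and -0.25.

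**Figure D3:**
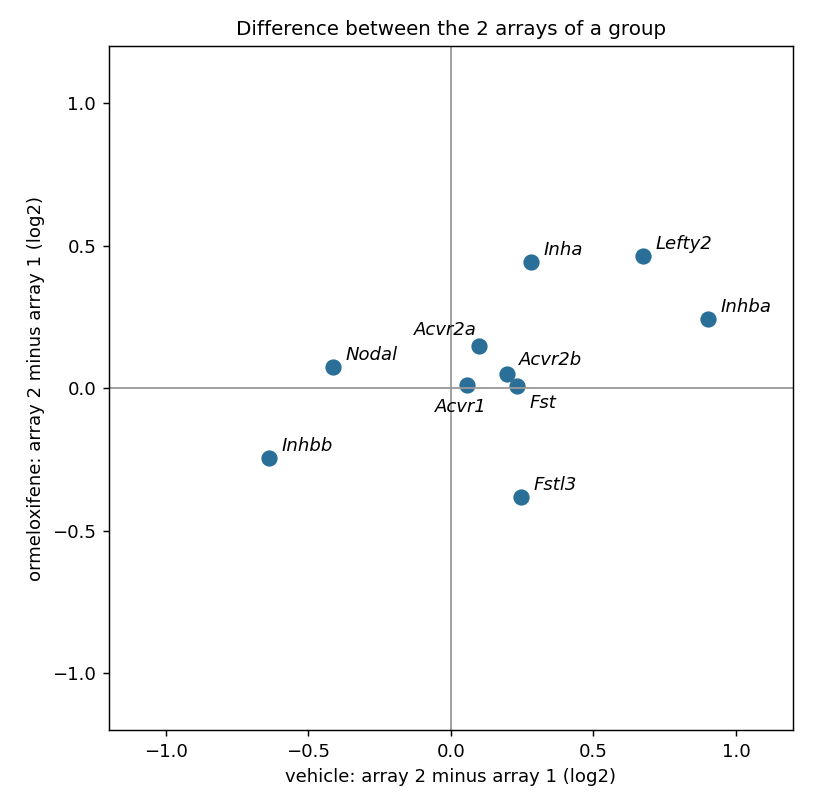
Difference between array 2 and array 1 on the log2 scale within the vehicle group (horizontal) and within the ormeloxifene group (vertical); each point is 1 gene. Inhba and Lefty2 lie to the right and above 0 and Inhbb to the left and below, while Fstl3 and Nodal have opposite signs in the groups.

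The rest of the pathway was read from 5 lists of 80 genes, of which 70 were analysed here. By limma 0 of the 70 passed the adjusted threshold and 1 had an unadjusted p under 0.05, where 2.20% of all genes did. With the replicate number as a block 7 of the 70 (10.0%) had an unadjusted p under 0.05, against 6.76% of all genes, and 0 passed the adjusted threshold. The 7 were Gdf3, Lefty1, Cer1, Ccn2, Fstl4, Tgif1 and Tgfb3, the last named because of this count, and Gdf3 had the smallest adjusted p of them at 0.365. On unnormalized values with the block the count was 4. The mean was higher with ormeloxifene in 37 and lower in 33, at a median of 0.01, and the groups did not overlap in 30.0% of them, against 25.7% of all genes. Among the other ligands, 8 of 11 were higher at a median of 0.13 (0.28 without ormeloxifene replicate 1). Gdf3, a Nodal-related ligand of early embryos, was 3.34 and 3.27 with vehicle and 4.33 and 3.88 with ormeloxifene, a difference of 0.80 ± 0.23 (unadjusted p = 0.00956, adjusted p = 1.00 by limma). It was among the dimmest genes, at percentile 4.97 of signal. It differed by 1.00 and 0.61 within numbers 1 and 2. Lefty1, the paralogue of Lefty2, was 5.47 and 4.95 with vehicle and 4.68 and 4.73 with ormeloxifene, a difference of -0.51 ± 0.24, also dim at percentile 18.8. It was -0.80 and -0.22 within numbers 1 and 2, -0.24 without vehicle replicate 1 and -0.77 without vehicle replicate 2. The liver-type activin subunits Inhbc (0.13 ± 0.29) and Inhbe (0.04 ± 0.24) had intervals that include 0.

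Among the other receptors and coreceptors 7 of 12 were higher and 5 lower, at a median of 0.03 (0.10 without ormeloxifene replicate 2, 0.11 without vehicle replicate 2). The activin type I receptors Acvr1b and Acvr1c differed by 0.06 ± 0.26 and 0.14 ± 0.20, and the type II receptor Bmpr2 by 0.11 ± 0.21. Tgfbr3, also called betaglycan, the coreceptor that lets inhibin bind type II receptors tightly, was bright at percentile 96.9. Its signal was 9.33 and 9.13 with vehicle and 9.72 and 9.41 with ormeloxifene, a difference of 0.34 ± 0.22 (95% interval -0.18 to 0.85). The ormeloxifene arrays lay above the vehicle arrays. Within numbers 1 and 2 the difference was 0.38 and 0.29, and with 1 array left out it ran from 0.18 without ormeloxifene replicate 1 to 0.49 without ormeloxifene replicate 2. The pseudoreceptor Bambi differed by 0.24 ± 0.22, by 0.37 and 0.11 within the numbers, and by 0.070 and 0.40 without ormeloxifene replicates 1 and 2.

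Among secreted antagonists and processing enzymes 6 of 11 were higher, at a median of 0.09 (-0.019 without ormeloxifene replicate 1, 0.25 without ormeloxifene replicate 2). The Nodal antagonist Cer1, at percentile 7.01 of signal, differed by 0.50 ± 0.23 and Fstl4 by -0.41 ± 0.21. Cer1 differed by 0.20 and 0.80 and Fstl4 by -0.31 and -0.50 within numbers 1 and 2, and without ormeloxifene replicate 2 Cer1 was 0.31. Fstl1, which shares the follistatin name but is a distinct matrix glycoprotein, differed by -0.06 ± 0.30. The proprotein convertases Furin and Pcsk6, which cleave precursors of this family, differed by 0.23 ± 0.25 and -0.03 ± 0.24. In the Smad list 13 of 19 were lower, at a median of -0.05 (-0.14 without ormeloxifene replicate 1, 0.044 without ormeloxifene replicate 2). The signal carriers Smad2, Smad3 and Smad4 differed by -0.17 ± 0.30, 0.05 ± 0.21 and 0.09 ± 0.24, and the inhibitory Smad7 by -0.05 ± 0.24. The corepressor Tgif1 (0.41 ± 0.21) and the ubiquitin ligase Smurf2 (-0.25 ± 0.21) had the smallest p of that list. They differed by 0.55 and 0.26 and by -0.084 and -0.41 within numbers 1 and 2, and Smurf2 was -0.39 and -0.10 without ormeloxifene replicates 1 and 2. Of 17 known transcriptional targets of the pathway 10 were higher and 7 lower, at a median of 0.01 (-0.12 without ormeloxifene replicate 1). The list gives no direction of regulation for its genes, so its median does not measure the output of the pathway. It includes Foxl2, also read as an ovarian marker, and the dim genes Fshb and Gnrhr, at percentiles 19.8 and 12.9 of signal. The matricellular gene Ccn2 was at -0.42 ± 0.23 and the protease inhibitor Timp3 at 0.27 ± 0.22. Ccn2 differed by -0.58 and -0.26 and Timp3 by 0.31 and 0.23 within numbers 1 and 2. Without ormeloxifene replicates 1 and 2, Ccn2 was -0.21 and -0.64 and Timp3 0.12 and 0.42, and Timp3 was 0.16 without vehicle replicate 2. As decidual markers beside this pathway 8 genes were read, 4 higher and 4 lower, at a median difference of -0.02. By limma 3 of the 8 had an unadjusted p under 0.05 (2.20% of all genes) and 0 passed the adjusted threshold. Igfbp1 differed by -1.05 ± 0.29, at -0.54 and -1.56 within numbers 1 and 2. The dim prolactin family genes Prl8a2 and Prl3c1 were higher by 0.61 and 0.56. The others were Wnt4 at -0.34, Cebpb at -0.24, Bmp2 at -0.11, Alpl at 0.22 and Bmp8a at 0.07. The mean log2 signal of the 8 was 5.64 and 5.95 with vehicle and 5.76 on both ormeloxifene arrays.

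**Figure D4:**
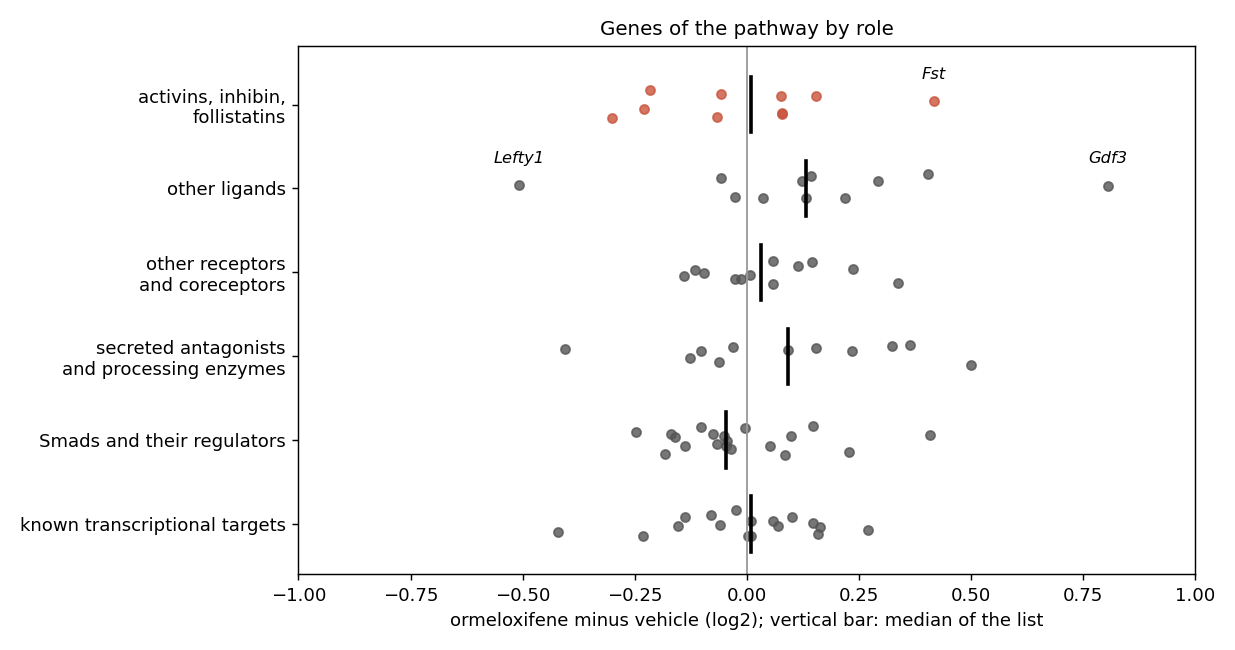
Ormeloxifene minus vehicle on the log2 scale for the 10 genes (top row) and the 70 other pathway genes by role; each point is a gene and each vertical bar the median of its row. With all 4 arrays, medians run from -0.05 for the Smads and their regulators to 0.13 for the other ligands, and Fst is the highest of the 10 genes.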

How the data were processed

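The authors processed the arrays in Affymetrix Expression Console, per the submitters' processing notes, which as used here state no version, summary method or genome build. The deposited values of 36685 probe sets ran from 0.92 to 13.59 and were taken as log2 from that range. Array medians were 5.67 and 5.93 with ormeloxifene and 5.72 and 5.84 with vehicle, so quantile normalization over all probe sets was applied. In the platform annotation 18511 probe sets had 1 gene symbol, 575 had several and 17599 had none. The brightest probe set of a gene was kept. Differences come from limma 3.58.1 (lmFit, eBayes, no block, 2-sided) run in R 4.3.3, and p-values were adjusted by Benjamini-Hochberg over 18166 genes; the fit had 2 residual degrees of freedom, 7.55 after moderation, and was tested on simulated data. The members, lists and tests were chosen with earlier results of these data known. Named genes are the 10 members, 15 pathway genes fixed by name and the 2 of smallest p in each pathway list. Marker lists not described in the text were endothelial, leukocyte, oviduct and embryo genes, with median differences of 0.18, 0.14, -0.04 and 0.07. Promoter sequences are RefSeq's, and motifs were chosen with the sequences known.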

Additional observations from a re-analysis of the deposited data

How the results depend on the processing

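The 10 genes gave 0 calls at an adjusted p of 0.05 under every alternative run, with 0.701 as the smallest adjusted p, and so did the 70 pathway genes. Over all genes the count was 0 in the fit reported, 1 with arrays centred on their medians, 1 with probe sets of a gene averaged, 4 with a variance trend, 9 when only genes above the median signal were tested, and from 0 to 3 with 1 array left out. With the replicate number as a block it was 5, and 84 when that block was fitted to unnormalized values. The degrees of freedom after moderation were 8.15 with the block and 39.6 with the block on unnormalized values, against 7.55 in the fit reported. At an unadjusted p under 0.05 stood 1 of the 10 genes, Fst, with the block, and 0 with the block on unnormalized values (where Fst had 0.0514, adjusted p = 0.785 by limma) or with 1 array left out. Deviations of same-numbered arrays from their group means correlated at 0.475 across genes, but 2 pairs of arrays do not settle whether the numbers pair the samples. The median difference of the family was -0.058 over the 7 members kept by the signal filter, and ran from -0.19 to 0.067 with 1 array left out. Those of the other lists then ran from 0.12 to 0.28 (other ligands), 0.035 to 0.11 (other receptors), -0.019 to 0.25 (antagonists and enzymes), -0.14 to 0.044 (Smads) and -0.12 to 0.035 (targets). The block, the variance trend and the signal filter leave the difference of group means of a gene unchanged, so they could not turn its direction. Averaging probe sets also left the difference of each named gene unchanged, so it could not turn a direction either. No named gene turned direction on unnormalized values or with arrays centred on their medians, whereas 16 of the 32 did with an array left out. Over those fits the differences ran from -0.38 to 0.53 for Inhba, -0.17 to 0.47 for Inhbb, -0.14 to 0.0073 for Acvr2a, -0.019 to 0.18 for Acvr2b, -0.13 to 0.29 for Nodal and -0.40 to 0.28 for Lefty2. They ran from -0.23 to 0.34 for Acvr1b, -0.56 to 0.22 for Smad2, -0.046 to 0.15 for Smad3, -0.13 to 0.30 for Smad4, -0.27 to 0.18 for Smad7, -0.22 to 0.48 for Inhbc, -0.20 to 0.28 for Inhbe, -0.033 to 0.50 for Furin, -0.27 to 0.21 for Pcsk6 and -0.40 to 0.28 for Fstl1. The lone array left in a group is assumed to vary like the other group. Signal over background was not used here, so dim genes are described by percentile.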
